A study of Mus musculus with 3 samples.

Results

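The regions described here are the annotated mouse miRNA hairpins that lie outside protein-coding genes. From the GENCODE mouse M21 annotation of GRCm38, genes of type miRNA with a symbol starting Mir were taken when they lay on an autosome and overlapped no protein-coding gene on their own strand. The Mirlet7, Mir9 and Mir124a loci, the Mir17hg cluster and chromosome 12 from 109.4 to 109.8 Mb were left out. Mir7j and Mir7k, whose mature entries are let-7j and let-7k, do not carry the Mirlet7 symbol and were kept. This left 359 of 2202 annotated miRNA genes. Of the others, 1028 had another kind of symbol, 646 lay within a protein-coding gene and 90 were not on an autosome. Another 59 lay in the region of chromosome 12, 8 were Mirlet7, 6 Mir17hg, 3 Mir9 and 3 Mir124a hairpins outside protein-coding genes.

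Argonaute 2 (Ago2) HITS‐clip was carried out on 3 samples of N2A, a mouse neuroblastoma cell line, all untreated and grown in high glucose medium with 10% serum. Live cultures were irradiated with ultraviolet light at 400 and then repeatedly at 200 mJ per square cm, which fixes RNA to the proteins in contact with it. RNA bound to Ago2 was recovered with the monoclonal antibody 2D4 and sequenced, and the authors deposited the genomic intervals in which they called peaks in each library. The 3 libraries form 1 group, and the labels do not say whether they came from separate cultures, so the spread between them may be technical. N2A is a transformed line and all libraries come from it, so levels in other neurons are not addressed.

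A miRNA hairpin is the stem-loop in a longer transcript from which short mature miRNAs are cut. Drosha releases the hairpin in the nucleus and Dicer removes its loop in the cytoplasm, which leaves a duplex with a 5p arm and a 3p arm. Usually a single strand of the duplex is kept in an Argonaute protein as the guide. The bases that follow the first nucleotide of the guide, the seed, pair with target transcripts. Hairpins outside protein-coding genes have transcripts of their own, often long non-coding RNAs, and neighbouring hairpins are often cut from a shared transcript. In HITS‐clip a peak on a hairpin's own strand marks RNA of that locus bound to Ago2, whether mature miRNA or precursor.

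Replicates 1, 2 and 3 held 711377, 498071 and 829936 peaks. The table gives intervals and no read counts, so sequencing depth was unknown, a peak says that a locus was called but not how abundant its miRNA was, and intervals given here cover counting error only. The lowest score of any peak was 54.57, and 99.3% of peaks had the highest score, 60, so the score ranked nothing. Of the 11 neuronal and neuroblastoma genes reported here, 8 had a peak on their 3′UTR in all libraries, against 23.2% of all protein-coding genes with a 3′UTR. Among them were Hand2 and Gata3, factors of sympathetic neurons, and Mycn. Gap43, Nefl and Tubb3 had no such peak in at least 1 library, and Nefl had none in any.

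Mature sequences from RefSeq (GRCm38.p6) are shown for 3 sets of arms. The first are arms covered in all libraries that share a seed with another such arm, so that these miRNAs pair with like sites. Capitals mark the seed, bases 2 to 8 counted from the 5′ end, and the genomic position of the arm is given before the sequence.
miR-15a-5p, chr14:61632075-61632096, minus strand: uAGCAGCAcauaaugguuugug
miR-195a-5p, chr11:70235062-70235082, plus strand: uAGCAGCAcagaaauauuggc
miR-497a-5p, chr11:70234730-70234751, plus strand: cAGCAGCAcacugugguuugua
miR-132-3p, chr11:75173723-75173744, plus strand: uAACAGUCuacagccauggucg
miR-212-3p, chr11:75173443-75173464, plus strand: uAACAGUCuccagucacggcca
The other arms covered in all libraries had seeds of their own: 47 arms held 44 different seeds, and 21 of the 47 began with u.

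The second set are examples of arms whose peaks began at the annotated first base in every library, or whose partner arm was never covered.
miR-1839-5p, chr7:81529919-81529940, plus strand: aAGGUAGAuagaacaggucuug
miR-192-5p, chr19:6264857-6264877, plus strand: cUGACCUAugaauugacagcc
miR-212-5p, chr11:75173403-75173425, plus strand: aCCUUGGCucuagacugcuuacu
miR-29c-5p, chr1:195037562-195037583, plus strand: uGACCGAUuucuccugguguuc
miR-34a-5p, chr4:150068473-150068494, plus strand: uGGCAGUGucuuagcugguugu
miR-182-5p, chr6:30165962-30165986, minus strand: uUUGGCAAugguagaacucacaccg
miR-184-3p, chr9:89802263-89802284, minus strand: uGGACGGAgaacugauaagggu
miR-144-3p, chr11:78073047-78073066, plus strand: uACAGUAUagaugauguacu

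The third set are the arms of 2 hairpin pairs that make an identical mature miRNA from different chromosomes. Within each pair the shared arm has 2 exact copies in the genome and the partner arms have 1 copy each.
miR-125b-5p, chr9:41581940-41581961 in Mir125b-1, plus strand: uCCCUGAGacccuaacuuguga
miR-125b-5p, chr16:77646279-77646300 in Mir125b-2, plus strand: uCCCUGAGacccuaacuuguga
miR-125b-1-3p, chr9:41581980-41582001, plus strand: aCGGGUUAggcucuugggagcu
miR-125b-2-3p, chr16:77646318-77646339, plus strand: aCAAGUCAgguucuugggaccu
miR-29b-3p, chr6:31063025-31063047 in Mir29b-1, minus strand: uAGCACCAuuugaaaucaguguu
miR-29b-3p, chr1:195037091-195037113 in Mir29b-2, plus strand: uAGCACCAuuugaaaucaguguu
miR-29b-1-5p, chr6:31063067-31063088, minus strand: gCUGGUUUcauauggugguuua
miR-29b-2-5p, chr1:195037050-195037074, plus strand: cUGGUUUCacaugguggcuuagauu

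A peak on the same strand overlapped 80 of the 359 hairpins in replicate 1, 96 in replicate 2 and 101 in replicate 3. These are 22.3%, 26.7% and 28.1% of them (mean 25.7% ± 3.06, SD, n = 3), with 95% Wilson intervals of 18.3 to 26.9%, 22.4 to 31.5% and 23.7 to 33.0%. Over all 2202 miRNA genes the shares were 14.9%, 23.4% and 24.1%. In all libraries, 44 hairpins had a peak (12.3%, Wilson interval 9.26 to 16.1%), against 8.4% of all miRNA genes. A further 39 had a peak in exactly 2 libraries and 67 in exactly 1, and 209 had none. With the likely padding of 30 nt per side removed from the peaks, 78, 94 and 98 hairpins kept a peak, and the 44 were unchanged in number. Replicate 2 had the fewest peaks overall but not the fewest occupied hairpins, with 19.3 occupied hairpins per 100000 peaks against 11.2 in replicate 1 and 12.2 in replicate 3. Replicates 2 and 3 shared 68 occupied hairpins, which were 70.8% of those in replicate 2 and 67.3% of those in replicate 3. Replicate 1 shared 52 with replicate 2 and 51 with replicate 3, which were 65.0% and 63.8% of its own.

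The same hairpins read on the opposite strand gave the background. There 30, 25 and 40 hairpins had a peak in replicates 1, 2 and 3, or 8.36%, 6.96% and 11.1% (mean 8.82% ± 2.13, SD, n = 3). The same strand was higher in every library, and its lowest share lay above the highest on the opposite strand. The difference was 13.9, 19.8 and 16.99 percentage points (mean 16.9 ± 2.93; exact sign-flip permutation test, two-sided, p = 0.25, the smallest that 3 libraries allow). In all libraries 8 hairpins had an opposite-strand peak, against 0.409% of all miRNA genes.

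These 8 were Mir126b, Mir30f, Mir1957b, Mir497b, Mir451b, Mir142b, Mir3065 and Mir219c. Except for Mir1957b, which lies opposite the protein-coding gene Wdr59, each faces another annotated hairpin. Mir451b faces Mir451a, Mir142b faces Mir142, Mir497b faces Mir497, Mir219c faces Mir219a-1, Mir30f faces Mir30e, Mir126b faces Mir126a and Mir3065 faces Mir338. Over the 29 hairpins that face another one, 12, 9 and 11 had an opposite-strand peak in replicates 1, 2 and 3, and 7 had one every time (24.1%). Over the remaining 330 the numbers were 18, 16 and 29, with 1 in all libraries (0.303%). Mir126b, Mir30f and Mir3065 also lie opposite a protein-coding gene (Egfl7, Nfyc and Aatk). Over the 109 hairpins opposite a protein-coding gene, 11, 9 and 18 had an opposite-strand peak in replicates 1, 2 and 3, and 4 in all libraries (3.67%). For those 3 hairpins, RNA of the facing hairpin and of the facing gene cannot be told apart by a peak.

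**Figure D1:**
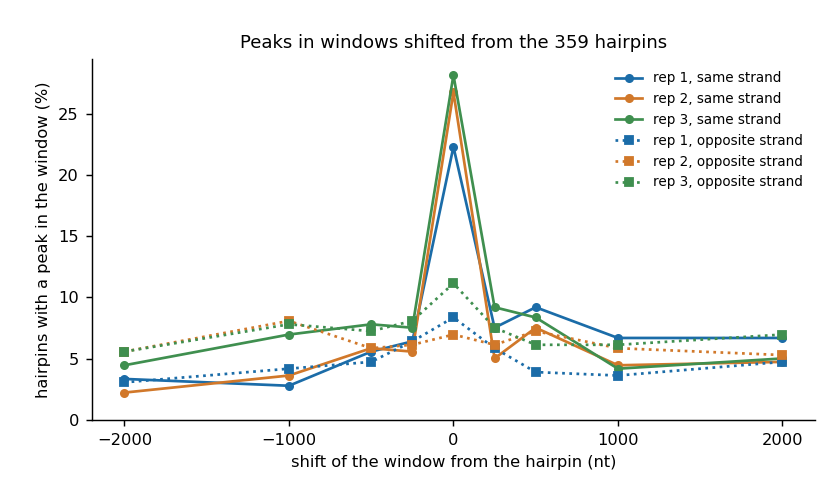
Share of the 359 hairpins (%) with a peak in a window of the hairpin's own length, against the shift of the window from the hairpin (nt). Lines are libraries, circles and solid lines the same strand, squares and dotted lines the opposite strand. On the same strand the shares at 0 are 22.3% to 28.1%, and at every other shift they are 9.19% or less.

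The signal was local. In same-strand windows moved by 250 nt to either side, 5.01% to 9.19% of the hairpins had a peak in a library, and 4 on each side had one in all libraries. At 1000 and 2000 nt the shares were 2.23% to 6.96% per library, with 0 or 1 window occupied in all libraries. Opposite-strand shares at 250 nt or more, 3.06% to 8.08%, overlapped those of the same strand. Of the peaks on hairpins 43.0%, 31.9% and 33.9% were at most 85 nt wide in replicates 1, 2 and 3, against 71.5%, 61.4% and 52.8% of all peaks. This difference was not tested, and a wider peak overlaps a hairpin more easily. Their median width was 86.5, 88 and 89 nt, against 83, 84 and 85 nt for all peaks. Wider than 1000 nt were 9, 7 and 6 of them (9.0%, 5.88% and 5.08%), against 3.02%, 4.83% and 2.77% of all peaks, a peak over several hairpins being counted once. With peaks of at most 200 nt only, 31 of the 44 hairpins still had one in all libraries. The other 13 were Mir214, Mir92b, Mir148a, Mir210, Mir425, Mir497, Mir195a, Mir132, Mir451a, Mir193a, Mir3079, Mir484 and Mir125b-2, and 6 of these, among them Mir214 and Mir425, had a peak wider than 1000 nt in at least 1 library.

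Many peaks lay on a single arm of the hairpin. A peak appears to include 30 nt of padding at each side, and an arm was counted as covered when the remaining central part overlapped it by at least 15 nt. Of the 359 hairpins 315 had a mature entry in the RefSeq table, with 467 arms in all, and 47 arms were covered in all libraries, or 31 when peaks of at most 200 nt alone were used. Of the 44 hairpins with a peak in all libraries, 38 had a mature entry, and 36 of these had the same arm covered every time. The exceptions were Mir183 and Mir219a-1. On Mir183 the 5p arm was covered in replicates 1 and 2 and the 3p arm in replicate 3, and on Mir219a-1 the 5p arm in replicate 1 and the 3p arm in replicates 2 and 3. Of 64 hairpins with a mature entry that were occupied in exactly 1 library, 46 had an arm covered there (71.9%).

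**Figure D2:**
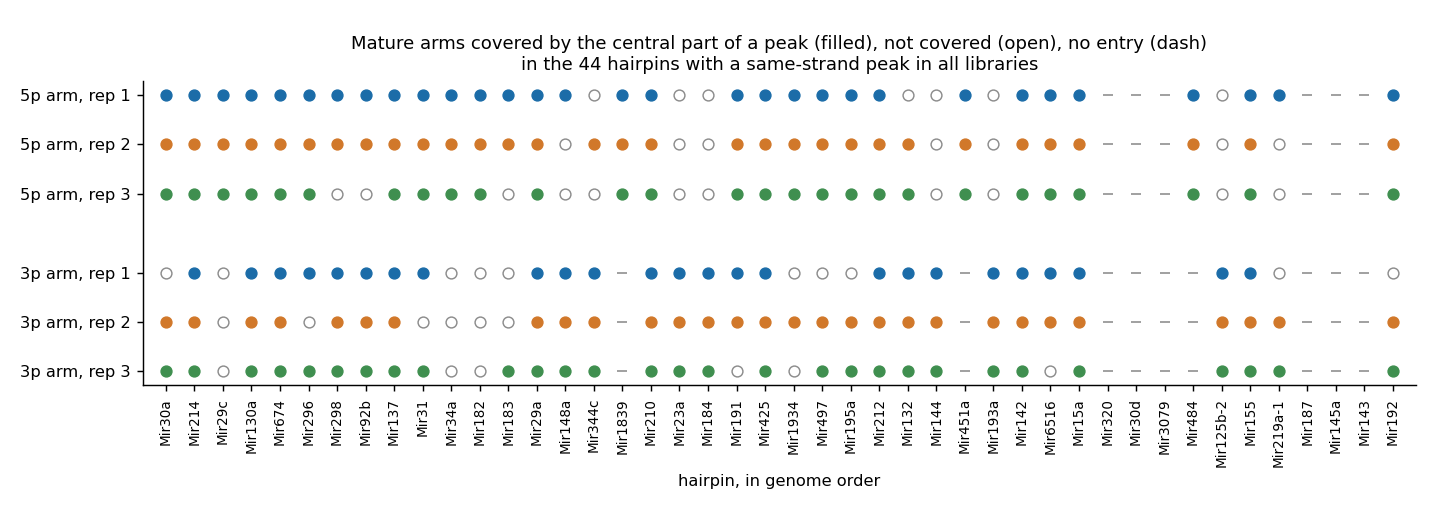
Arms covered in each library (rows) on the 44 hairpins with a peak in all libraries (columns, genome order). Filled points are covered arms, open points arms not covered, and dashes arms without an entry; hairpins with a single mature entry are drawn in the 5p rows. Mir137, Mir155 and Mir212 have every point filled, while Mir34a and Mir182 are filled on the 5p arm alone and Mir23a and Mir184 on the 3p arm alone.

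On 152 hairpins both arms were listed. The 5p arm was covered on 39, 40 and 38 of them in replicates 1, 2 and 3, and the 3p arm on 34, 48 and 52. The 5p count was higher in replicate 1 and lower in the other libraries, so the arms did not separate (mean difference -5.67 ± 9.71 hairpins; exact sign-flip permutation test, two-sided, p = 0.5). Both arms of a hairpin were covered on 21, 27 and 24.

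In all libraries, 11 hairpins had both arms covered: Mir130a, Mir137, Mir142, Mir155, Mir15a, Mir210, Mir212, Mir214, Mir29a, Mir425 and Mir674. With peaks of at most 200 nt only, 7 of these remained, without Mir137, Mir210, Mir214 and Mir425. A single peak can span both arms. This was so on Mir142 in every library, so its arms were not resolved, and in 1 or 2 libraries on Mir155, Mir15a, Mir210, Mir214, Mir29a, Mir425 and Mir674. On Mir130a, Mir137 and Mir212 no peak spanned both arms. A further 12 had only the 5p arm covered every time and 10 only the 3p arm. Mir34a, which p53 induces, and Mir182 were covered on 5p in every library and never on 3p. So was Mir29c, on miR-29c-5p. On Mir184, Mir23a, Mir144, Mir193a and Mir125b-2 the 3p arm was covered in every library and the 5p arm in none. The covering peak was 6620 nt wide on Mir193a in replicate 1 and 1847 nt wide on Mir125b-2 in replicate 2. Mir451a has a single mature entry that runs around the loop, because Ago2 itself cuts this hairpin in place of Dicer, and it was covered in every library.

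The 5′ ends of peaks were set against the annotated ends of the mature miRNAs. Of 213 peaks of at most 200 nt that covered exactly 1 arm (63, 77 and 73 in replicates 1, 2 and 3), 112 had the 5′ end of their central part at the first base of the annotated mature sequence (52.6%). Per library the share was 55.6%, 54.5% and 47.9%, so the libraries differed little. Within 1 nt of that base were 140 peaks (65.7%). The 3′ end behaved otherwise, since it coincided with the last annotated base in 10 peaks (4.69%) and lay within 1 nt of it in 34 (15.96%). Its median position was 3 nt beyond that base, with quartiles of 2 and 5 nt. The central parts had a median length of 26 nt.

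**Figure D3:**
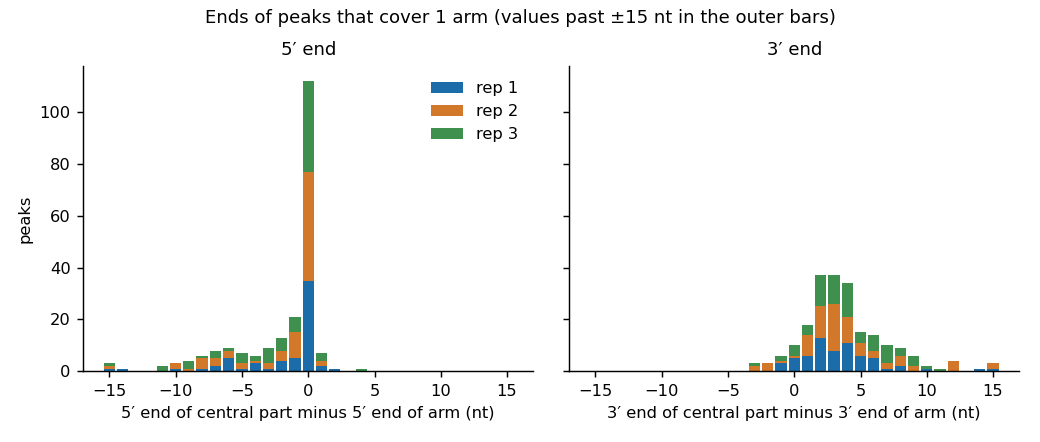
Number of peaks against the distance in nt between an end of the peak's central part and the same end of the mature arm it covered, for 5′ ends (left) and 3′ ends (right), stacked by library (213 peaks of at most 200 nt, each covering 1 arm). The 5′ ends pile up at 0, with 112 peaks, and the 3′ ends spread around a median of 3 nt past the annotated end.

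For 16 arms such a peak was present in all libraries. On miR-1839-5p, miR-192-5p, miR-29c-5p and both arms of Mir212 the central part began at the first mature base in each of the 3 libraries. On miR-182-5p it began at that base in replicates 1 and 2 and 1 nt before it in replicate 3. Other arms had a start that lay before the annotated base throughout. On miR-184-3p it was 6, 8 and 8 nt before it in replicates 1, 2 and 3, and on miR-130a-3p 8, 10 and 9 nt before it. On miR-34a-5p it was 3 nt before in replicates 1 and 3 and at the annotated base in replicate 2, and on miR-144-3p it was at that base in replicates 1 and 3 and 7 nt before in replicate 2.

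Arms with more than 1 exact copy in the genome were almost never covered. Of 386 arms with 1 copy, 80, 108 and 104 were covered in replicates 1, 2 and 3 (20.7%, 28.0% and 26.9%), and 47 in all libraries. Of 81 arms with several copies, 2, 0 and 0 were covered (2.47%, 0% and 0%), and 0 in all libraries. The difference was 18.3, 28.0 and 26.9 percentage points (mean 24.4 ± 5.34; exact sign-flip permutation test, two-sided, p = 0.25, the smallest possible). Hairpins within protein-coding genes showed the same order, with 16.7%, 35.5% and 34.2% of 842 arms of 1 copy covered and 1.89%, 9.43% and 1.89% of 53 arms of several copies. How reads that match several places were treated is not given in the sources used here, and its part in this difference was not tested.

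The clearest view came from 31 hairpins that carry 1 arm of each kind. Their arm of 1 copy was covered on 7, 9 and 11 of them in replicates 1, 2 and 3, and on 17 in at least 1 library. Their arm of several copies was covered on a single hairpin, Mir219a-1, in replicate 1. The miR-125b and miR-29b sequences shown above are of this kind. miR-125b-5p, the usual guide, was covered on neither Mir125b-1 nor Mir125b-2 in any library. Its partner miR-125b-2-3p was covered in all libraries, in replicate 2 by a peak 1847 nt wide, and miR-125b-1-3p in replicates 2 and 3. miR-29b-3p was likewise covered at neither locus, whereas miR-29b-1-5p was covered in replicates 2 and 3 and miR-29b-2-5p in replicates 1 and 2. miR-16-5p, miR-24-3p, miR-30c-5p, miR-181a-5p and miR-7a-5p were covered in no library on these hairpins, while the partner arm of each had a peak in at least 1 library.

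**Figure D4:**
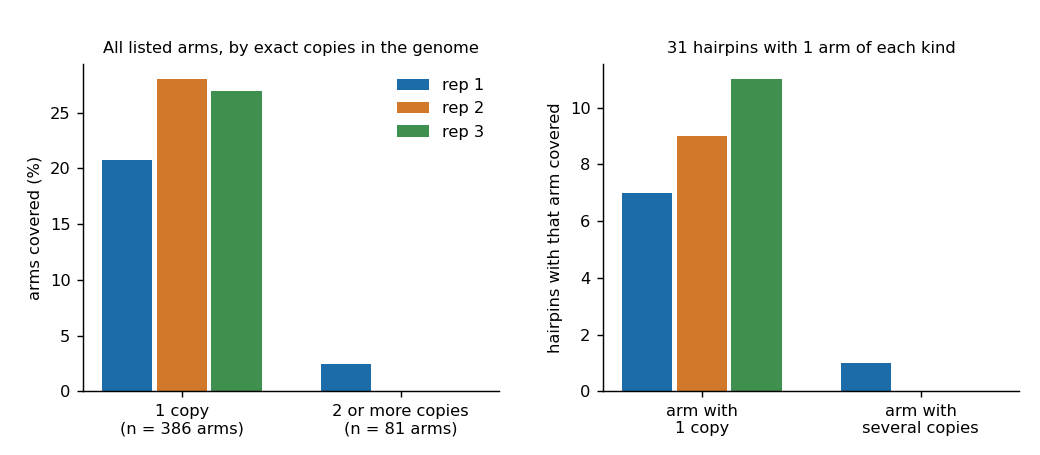
Arms covered in each library by the number of exact copies of the mature sequence in the genome. Left, percent of arms covered, for 386 arms of 1 copy and 81 of several copies; right, number of hairpins with each arm covered, among 31 hairpins that have 1 arm of each kind. Bars are libraries, and in replicates 2 and 3 the bars for several copies are at 0.

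The hairpins form 314 clusters when neighbours on the same strand within 10 kb are joined: 281 single hairpins and 33 clusters of 2 or more, which hold 78 hairpins. Any hairpin of a cluster had a peak in 69, 84 and 84 clusters in replicates 1, 2 and 3, and in 38 clusters every library had one. By kind these were 15 of the 33 clusters of 2 or more (45.5%) and 23 of the 281 single hairpins (8.19%), a comparison in which larger clusters have more chances. In 6 of the clusters of 2 or more each hairpin had a peak in all libraries. They were Mir497 with Mir195a, Mir212 with Mir132, Mir144 with Mir451a, Mir145a with Mir143, Mir296 with Mir298, and Mir191 with Mir425. In replicate 2 the only peak on Mir497 was 431 nt wide and also lay on Mir195a, which had another of 732 nt. With peaks of at most 200 nt only, Mir497, Mir195a, Mir132, Mir451a and Mir425 no longer had one in all libraries. Mir145a with Mir143 and Mir296 with Mir298 were unchanged. The 5 hairpins of the Mir302 and Mir367 cluster, which marks pluripotent cells, had no peak in any library. Of the 7 clustered hairpins from Mir290a to Mir295, of embryonic stem cells, 0, 2 and 4 had a peak in replicates 1, 2 and 3, and Mir294 and Mir295 had one in replicates 2 and 3. In replicate 3 the peak on Mir293, Mir294 and Mir295 was the same one, 1511 nt wide.

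By family, 94 of the hairpins belong to named groups, of which 42, 49 and 55 had a peak in replicates 1, 2 and 3 and 30 in all libraries, beside 44 of all 359. Of the 5 hairpins of the family of miR-15, miR-16, miR-195 and miR-497, which limits cell-cycle genes, Mir15a, Mir195a and Mir497 had a peak in all libraries and Mir195b in none. Mir16-1 had one in replicates 1 and 3, but in replicate 3 the padding alone reached it. In the p53-induced miR-34 family Mir34a had a peak in all libraries, Mir34c in 2 and Mir34b in 1. Both hairpins of the activity-induced neuronal cluster of Mir132 and Mir212 had a peak in every library.

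Among other neuronal hairpins, Mir137, which acts in neural differentiation, and Mir92b, of neural progenitors, had a peak in all libraries. In the same group Mir129-1, Mir138-1 and Mir135a-2 had one in a single library, on Mir129-1 and Mir138-1 by its padding alone. Mir129-2, Mir138-2 and Mir135a-1 had none. The arms miR-129-5p, miR-138-5p and miR-135a-5p of these hairpins have 2 exact genomic copies each, and the listed partner arms have 1 copy each. None of these arms was covered in any library, and the part of copy number in this was not tested. Of the sensory cluster of Mir183, Mir96 and Mir182, Mir182 and Mir183 had a peak in all libraries and Mir96 in 2. All 4 hairpins of the miR-29 family, which targets collagen transcripts, had a peak in at least 2 libraries, with Mir29a and Mir29c in all 3. In the miR-30 family Mir30a and Mir30d had one in all libraries, Mir30c-2 in 2 and Mir30b in 1. Mir23a, Mir125b-2, Mir130a, Mir193a and the hypoxia-induced Mir210 had a peak in each library, as did Mir31 and the imprinted pair Mir296 and Mir298. Other hairpins of their families had peaks in fewer libraries. Mir27a, from the cluster of Mir23a, had no peak in any library, and both of its arms have 1 copy. Mir24-2 of that cluster had a peak in 2 libraries. Beside Mir125b-2, Mir125b-1 and Mir99a had a peak in 2 libraries and Mir100 in 1. Beside Mir193a, Mir193b had one in 2 libraries, Mir365-2 in 1 and Mir365-1 in none. Of the 4 hairpins of the miR-181 family 0, 2 and 2 had a peak in replicates 1, 2 and 3 and 0 in all libraries.

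Several hairpins best known from other tissues had peaks too. From lists of such hairpins 24 in the set were matched by symbol. A peak lay on 10, 13 and 10 of them in replicates 1, 2 and 3, and on 8 in all libraries. Over all 359 hairpins 44 had a peak in all libraries, and over Mir1 to Mir500, which include these 24, 39 of 154. Of the 6 blood hairpins listed, 5 were matched by symbol. Each of these 5 had a peak in at least 2 libraries, and 4 of them in all. The 4 were Mir144 and Mir451a, of red cells, and Mir142 and Mir155, of white cells. Mir146a, also on the blood list, is annotated as Mir146 and was missed by these counts. It had a peak in replicate 3 only. On smooth muscle and fibroblast hairpins, Mir143, Mir145a and Mir214 had one in all libraries and both Mir199a hairpins in none; both arms of the Mir199a hairpins have several genomic copies. The oligodendrocyte hairpin Mir219a-1 was also among the 8, while Mir219a-2, whose listed arm has 2 genomic copies, had no peak. By contrast, liver Mir122 and the pancreatic Mir216a and Mir217 had no peak, the islet hairpin Mir375 had one in replicates 2 and 3, and of the 6 hairpins of striated muscle (the Mir1a, Mir133 and Mir206 loci) only Mir206 had a peak, in replicate 2. Of the 6 striated muscle hairpins, Mir1a-1 had an entry for its 5p arm alone and Mir133a-2 had none. Genomic copies of their other arms were not counted. The epithelial hairpins Mir141 and Mir200c each had a peak in 2 libraries. Whether RNA from other cells or from serum had a part in these peaks was not tested.

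Outside the named families were 265 hairpins, of which 38, 47 and 46 had a peak in replicates 1, 2 and 3 and 14 in all libraries. Of the 14, 11 had a mature arm covered every time: Mir674, Mir148a, Mir344c, Mir1839, Mir184, Mir191, Mir425, Mir1934, Mir6516, Mir484 and Mir192. Mir1839 and Mir6516 overlap annotated small Cajal body RNAs (scaRNA), and both were covered on the 5p arm in every library. No other arm is listed for Mir1839, which had another peak towards its 3′ end in each library. On Mir6516 the 3p arm was also covered in replicates 1 and 2. The hairpins Mir320, Mir3079 and Mir187 had no arm entry. Mir484 and Mir320 are known for being made without Drosha.

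Hairpins differed by the number in their symbol, which follows the order of their naming. Among Mir1 to Mir500, 61, 64 and 73 of 154 had a peak in replicates 1, 2 and 3, and 39 in all libraries (25.3%, Wilson interval 19.1 to 32.7%). Of the 153 numbered above Mir3000, 9, 21 and 21 had a peak and 2 had one in all libraries (1.31%, interval 0.359 to 4.64%). Early-numbered hairpins made up 88.6% of those occupied in all libraries and 27.8% of those occupied in none.

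Hairpins within protein-coding genes were the most similar set for comparison. Of those 646, 136, 267 and 268 had a peak in replicates 1, 2 and 3 (21.1%, 41.3% and 41.5%), and 85 in all libraries (13.2%). Outside minus within, the share differed by 1.23, -14.6 and -13.4 percentage points (mean -8.904 ± 8.799; exact sign-flip permutation test, two-sided, p = 0.5), so the sign was not the same in every library. The libraries spread more within genes (SD 11.8 points) than outside them (SD 3.06). Among Mir1 to Mir500 the difference was -6.25, -1.30 and 3.04 points (mean -1.50 ± 4.65, exact permutation p = 0.75). Above Mir500 it was -5.21, -25.1 and -26.9 points (mean -19.1 ± 12.0, exact permutation p = 0.25). Within a gene, RNA of the host transcript and of the hairpin cannot be told apart by a peak.

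**Figure D5:**
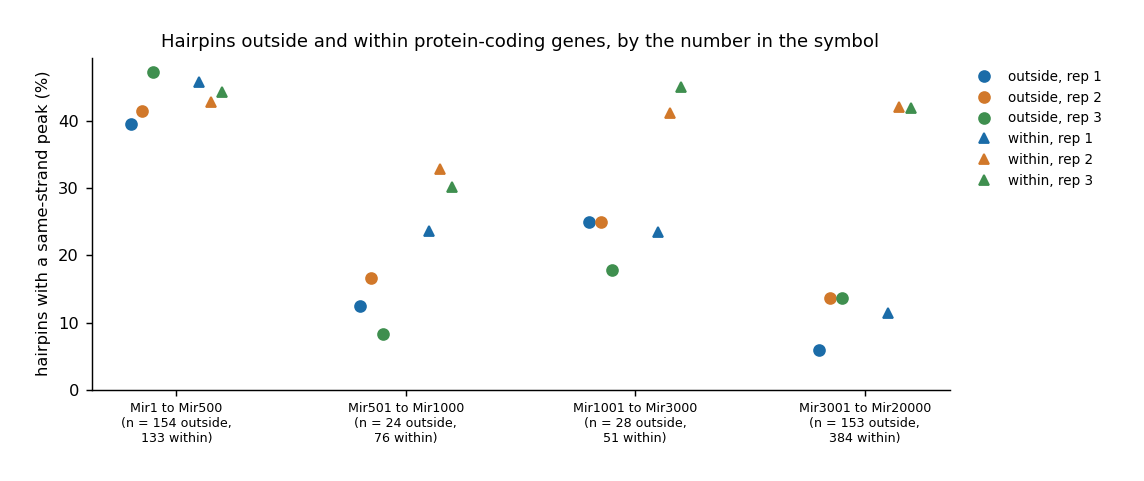
Share of hairpins with a same-strand peak (%) in each library, for hairpins outside (circles) and within (triangles) protein-coding genes, by the number in the symbol. For Mir1 to Mir500 all points lie between 39.6% and 47.4%; above Mir3000 the points outside genes are at 13.7% or less and those within genes reach 42.2% in replicate 2.

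An annotated long non-coding host was present for 89 of the 359 hairpins. Of these 31, 33 and 36 had a peak in replicates 1, 2 and 3, and 18 in all libraries (20.2%, Wilson interval 13.2 to 29.7%). Of the 270 without such a host 49, 63 and 65 had a peak, and 26 in all libraries (9.63%, interval 6.66 to 13.7%). Among Mir1 to Mir500 alone the shares in all libraries were 29.1% of 55 and 23.2% of 99, with intervals of 18.8 to 42.1% and 16.01 to 32.5% that overlap. Host transcripts among the 44 included Mir155hg, Mir142hg, Dleu2 of Mir15a, and Dnm3os of Mir214.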

How the data were processed

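Peaks of 3 Ago2 HITS‐clip libraries were analysed. The authors called peaks per library and deposited chromosome, start, stop, strand, sample and a score without a stated unit. The submitters' processing notes name mm10 (GRCm38), FastQC, cutadapt and STAR. Versions, the peak caller and its threshold are not given in the sources used here. A caller's threshold sets which hairpins count as occupied.

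Starts were counted from 0 and stops from 1. Starts reached -30, stops passed the end of the mitochondrial chromosome by up to 30 nt and the narrowest peak was 79 nt, so 30 nt of padding per side was taken as likely. Occupancy was an overlap by 1 nt or more of the hairpin's own strand, and an arm needed 15 nt of the central part. Exact copies of mature sequences were counted on both strands of GRCm38.p6. Shares have Wilson intervals at the 95% level, and differences were tested over libraries by exact sign-flip permutation.

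Hairpins of listed families with a peak in all libraries were named, then up to 25 others, ordered by the number of libraries with an arm covered. Members and lists were chosen with earlier results of these data known. The comparison of copies, the numbers in symbols and the facing hairpins was chosen after the values were seen. A further listed marker gene is not reported here. Overlap counting was tested on simulated data. Software was Python 3.11.15 with pandas 2.3.3, numpy 2.4.6, numba 0.67.0, scipy 1.17.1 and matplotlib 3.10.9.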

Additional observations from a re-analysis of the deposited data

How the results depend on the processing

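Of 53 alternatives 44 kept a difference in its direction or a count within 1.5 times, although differences varied in size. The 44 hairpins and 38 clusters occupied in all libraries became 23 and 23 with peaks of 86 to 200 nt only, and 83 and 69 when 2 libraries were enough. Leaving out 1 library gave 51 to 68 hairpins and 43 to 59 clusters, the highest in both without replicate 1. Requiring fewer libraries or fewer peaks changes these counts by construction. The difference between 5p and 3p turned to 0.667 hairpins with peaks of 86 to 200 nt only, and lay between -11.0 and -1.50 without 1 library; the cause was not tested. Same minus opposite strand lay between 11.2 and 22.3 percentage points over its alternatives, and outside minus within protein-coding genes between -19.1 and -1.50. With peaks of at most 200 nt only, the 47 arms covered in all libraries became 31, and the 11 hairpins with both arms covered became 7. Arm counts at that width, subsets by symbol number, facing hairpins and arms of 1 copy were added after the data were seen. No paired analysis was possible because all samples belong to 1 group, so replicate numbers pair no samples between groups; the differences given are between features of the same library. With 3 libraries no test could go below p = 0.25 by exact permutation, and the unknown read depth limits every absence.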
